A study of Mus musculus with 8 samples.

Results

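The replication-dependent histone genes encode the proteins that package newly made DNA. They were taken as the protein-coding genes whose symbol begins with Hist1h, Hist2h, Hist3h or Hist4h in GENCODE M21. This gave 66 of the 34450 genes in the deposited table: 6 for the linker histone H1, 17 for H2A, 18 for H2B, 12 for H3 and 13 for H4. The Hist1 cluster on chromosome 13 held 53 of them, the Hist2 cluster on chromosome 3 held 10, Hist3 on chromosome 11 held 2 and Hist4 on chromosome 6 held 1. Hist1h2aa was not analysed here.

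The values are FPKM (fragments scaled by gene length and library size) from RNA of whole kidneys of C57BL/6J mice aged 8 weeks, collected at day 3 after ischaemia-reperfusion injury (IRI), in which the blood supply of the kidney is stopped and restored. The hypoxia group (libraries 1 to 4) came from mice exposed to low oxygen ahead of the injury, and the normoxia group (libraries 5 to 8) from mice kept in normal oxygen ahead of it. All 8 kidneys were injured, so no value here describes an uninjured kidney. The labels do not say whether the libraries of a group came from separate mice, so the p-values measure only the spread between libraries.

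These genes are transcribed mainly in S phase, when a cell copies its DNA, in kidney as in other tissues, where repair after injury includes division of surviving tubule cells. Their messages are unusual among those of animals: most have no introns and end in a conserved stem-loop in place of a poly(A) tail. The stem-loop is bound by SLBP, which directs cutting of the transcript, its translation and its decay at the end of S phase. Some of the genes also give longer, polyadenylated messages in cells that do not divide. The libraries were made from poly(A) RNA, a step that retains messages with a tail.

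The stem-loop is shown first because it marks the end of the usual histone message. Each line below gives it from the GENCODE M21 transcript (GRCm38), 5′ to 3′ in the sense of the message and in DNA letters, with the 16 bases of the stem and loop in capitals and up to 5 bases on each side. The genes shown include some that were lower after hypoxia and some that were not.
Hist1h3c (chr13:23745042-23745067, minus strand): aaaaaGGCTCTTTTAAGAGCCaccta
Hist1h2ao (chr13:21810893-21810918, plus strand): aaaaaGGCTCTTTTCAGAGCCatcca
Hist1h2bj (chr13:22043633-22043658, plus strand): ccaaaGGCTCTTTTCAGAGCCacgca
Hist1h4m (chr13:21812124-21812147, plus strand): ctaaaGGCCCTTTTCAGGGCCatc
Hist1h4h (chr13:23531453-23531478, plus strand): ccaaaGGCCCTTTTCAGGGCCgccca
Hist1h1c (chr13:23739507-23739532, plus strand): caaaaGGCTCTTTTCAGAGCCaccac
Hist2h2aa1 (chr3:96246027-96246052, plus strand): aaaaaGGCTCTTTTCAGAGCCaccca
Hist3h2a (chr11:58955167-58955192, plus strand): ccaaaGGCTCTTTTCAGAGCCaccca
A motif of this form, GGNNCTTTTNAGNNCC, lay after the stop codon in the annotated transcript of 43 of the 66 genes, between 21 and 58 bases after it (median 31). It came in 6 kinds. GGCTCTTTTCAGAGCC was the commonest, in 25 genes, none of them coding for H4. The kinds that open with GGCC or GGTC stood in 11 H4 genes and in no gene of another class. Where no motif was found, the annotated transcript often stopped at or soon after the stop codon, and nothing follows from its absence there.

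The libraries differed in makeup within both groups. Depth was estimated from the spacing of low FPKM values at 8770000 to 14300000 fragments in hypoxia libraries and 9260000 to 14700000 in normoxia libraries, as an approximation without an interval. Ribosomal RNA, mitochondrial ribosomal RNA included, took 40.9%, 21.5%, 66.3% and 67.4% of the fragments in hypoxia libraries 1 to 4. In normoxia libraries 5 to 8 it took 13.5%, 63.0%, 28.0% and 72.5%. These shares were estimated from FPKM times annotated length, not from counted fragments. The histone genes together held about 718 to 2660 fragments per hypoxia library and 1570 to 2820 per normoxia library. Levels were therefore low: 34 of the 66 genes had a mean over 1 FPKM across the 8 libraries, and 3 a mean over 10 FPKM (Hist1h2bc, Hist1h1c and Hist2h2aa1). A value of 0 was listed for 39 of 264 hypoxia values and 22 of 264 normoxia values, which at this depth does not show absence.

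Most histone genes had lower levels in the hypoxia libraries, in every class, and none was called higher. The mean FPKM was lower after hypoxia for 59 of the 66 genes and higher for 7. For 27 of the 66, every hypoxia library lay below every normoxia library, and for 0 every one lay above. In limma (log2(FPKM + 0.5), genes with a mean of at least 0.5 FPKM, Benjamini-Hochberg over all 14444 tested genes), 48 of the 66 could be tested. The adjusted p was under 0.05 for 9 of them, all lower: Hist1h1a, Hist1h1b, Hist1h2ak, Hist1h2ao, Hist1h2bj, Hist1h2bm, Hist1h3c, Hist1h3h and Hist1h4m. Over all tested genes, 0.602% were called lower and 0.305% higher. The groups did not overlap, with hypoxia below, in 24 of the 48 tested histone genes, against 3.06% of all tested genes, and with hypoxia above in none, against 1.86%. That separation depended on scale: with each value divided by the library's summed protein-coding FPKM, 10 of the 66 genes lay lower without overlap and 1 (Hist1h2bc) higher, or 9 and 1 of the 48 tested, against 6.72% and 4.65% of all tested genes. At an unadjusted p under 0.05, 34 of the 48 were lower and 0 higher, against 6.84% and 2.52% of all tested genes. The log2 change (hypoxia minus normoxia) was negative in 45 of the 48, against 61% of all tested genes, and its median was -1.195, against -0.14 over all tested genes. The filter used the mean of all 8 libraries. Hist1h1a, Hist1h1b, Hist1h2ak, Hist1h2bm, Hist1h3c and Hist1h3h, all called, had a hypoxia mean under 0.5 FPKM, as did other tested histone genes. Such genes passed only through the normoxia libraries, so the filter itself fixed a lower mean after hypoxia. With no filter, the change was negative in 59 of the 66, with a median of -1.03, against -0.04 over all 30982 genes. In whole tissue, fewer cells of a type and less RNA per cell cannot be told apart.

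The number called depended on single libraries and on scaling. It was 2 without normoxia library 7 (Hist1h3c and Hist1h3h), 1 with a common sum of protein-coding FPKM (Hist1h3c) and 0 of 66 with no filter on low values, where 35 were lower and 0 higher at an unadjusted p under 0.05. With no filter, limma called 0 of all 30982 genes, and 4.38% of them were lower and 2.15% higher at an unadjusted p under 0.05. Without normoxia library 7, 0.0284% of all tested genes were called lower, and with the common sum 0.976%. The 18 genes that were not tested had no single value over 2.44 FPKM. Their summed FPKM was 3.19, 1.54, 2.94 and 2.40 in hypoxia libraries 1 to 4, against 5.48, 6.20, 6.55 and 9.32 in normoxia libraries 5 to 8, and so lay lower in each hypoxia library on the deposited scale, though not as a share of protein-coding FPKM.

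Summed by class in FPKM as deposited, the core histones H2A, H3 and H4 were lower in the hypoxia libraries, whereas H1 and H2B overlapped. As a share of protein-coding FPKM, H3 and H4 overlapped too, and so did H2A without the pair Hist2h2aa1 and Hist2h2aa2. Summed H3 was 4.94, 1.58, 4.76 and 4.67 FPKM after hypoxia, against 9.96, 20.07, 10.03 and 23.73 FPKM after normoxia. Summed H4 was 21.8, 12.7, 18.8 and 16.5 FPKM after hypoxia, against 51.6, 46.2, 35.4 and 62.9 FPKM after normoxia. Neither class overlapped between the groups in deposited FPKM: H3 averaged 3.99 ± 1.61 FPKM in hypoxia and 15.9 ± 7.03 FPKM in normoxia libraries, and H4 averaged 17.4 ± 3.85 FPKM in hypoxia and 49.0 ± 11.5 FPKM in normoxia libraries (SD, n = 4 per group). As a percent of each library's summed protein-coding FPKM, H3 was 0.0038, 0.00092, 0.0095 and 0.00865 after hypoxia, against 0.00496, 0.0278, 0.00603 and 0.0475 after normoxia. On that scale H4 was 0.0168, 0.00738, 0.0375 and 0.0306 after hypoxia, against 0.0257, 0.0639, 0.0212 and 0.126 after normoxia. There hypoxia libraries 3 and 4 lay above normoxia libraries 5 and 7 in both classes. Summed H2A was 11.3, 21.3, 7.43 and 6.72 FPKM after hypoxia, against 94.5, 22.8, 30.7 and 46.3 FPKM after normoxia. The H2A values of hypoxia library 2 and normoxia library 6 were close, because of the uneven pair Hist2h2aa1 and Hist2h2aa2 described below. Without that pair, H2A was 6.72 to 11.3 FPKM after hypoxia and 22.2 to 38.1 FPKM after normoxia. As a percent of protein-coding FPKM, H2A lay lower without overlap only with the pair included. Without it, H2A was 0.00867, 0.00454, 0.0148 and 0.0124 after hypoxia, against 0.011, 0.0316, 0.0138 and 0.0762 after normoxia.

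The H1 sum was 47.8, 45.0, 13.5 and 24.8 FPKM after hypoxia, against 11.9, 31.9, 35.2 and 42.9 FPKM after normoxia. The H2B sum was 93.9, 72.8, 31.7 and 29.5 FPKM after hypoxia, against 33.9, 57.9, 70.7 and 62.5 FPKM after normoxia. In both classes hypoxia libraries 1 and 2 were high and normoxia library 5 was low, and 1 gene, Hist1h1c or Hist1h2bc, made up much of the sum. Without Hist1h1c, the H1 sum was 1.77 to 7.14 FPKM after hypoxia and 5.29 to 30.6 FPKM after normoxia. Without Hist1h2bc, the H2B sum was 5.87 to 20.9 FPKM after hypoxia and 18.5 to 49.7 FPKM after normoxia. The ranges still overlapped slightly in both. No p is given for these sums.

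**Figure D1:**
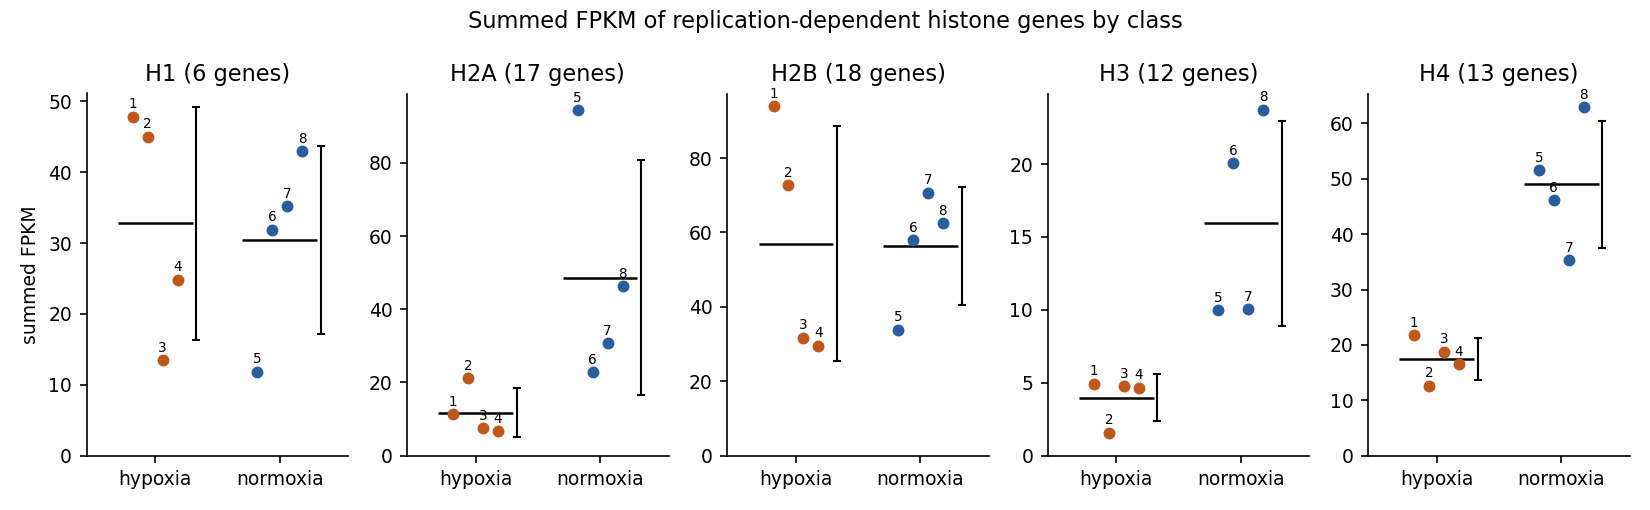
Summed FPKM of the histone genes of each class (vertical axis) in the 4 hypoxia and 4 normoxia libraries; each point is a library with its number, the line is the group mean and the bar is 1 SD. In deposited FPKM, H3 and H4 do not overlap between the groups (H4 at most 21.8 FPKM after hypoxia and at least 35.4 FPKM after normoxia), whereas H1 and H2B do. As a share of protein-coding FPKM, H3 and H4 overlap as well, and so does H2A without Hist2h2aa1 and Hist2h2aa2.

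H1 proteins bind the DNA that enters and leaves each nucleosome, and 2 of the 6 H1 genes fell. Hist1h1a (chr13:23763666-23764406, plus strand) had 0.76, 0, 0.11 and 0.46 FPKM in hypoxia libraries 1 to 4, against 2.06, 6.30, 4.89 and 11.95 FPKM in normoxia libraries 5 to 8. Its log2 change was -2.91 ± 0.51 (SE, limma adjusted p = 0.00447), the largest fall among the histone genes called. Hist1h1b (chr13:21779883-21780625, minus strand) had 0.87, 0.28, 0 and 0.31 FPKM after hypoxia, against 0.90, 4.33, 3.12 and 9.81 FPKM after normoxia, a log2 change of -2.30 ± 0.52 (SE, limma adjusted p = 0.0320). In deposited FPKM, hypoxia library 1 and normoxia library 5 nearly met in Hist1h1b, and the groups were further apart in Hist1h1a. These genes rest on few fragments: about 0 to 7.8 per hypoxia library and 9.3 to 82 per normoxia library. Whether either has a near-identical copy was not examined, because only coding sequences of the same length were compared and no other histone gene here shares theirs.

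Hist1h1c, which encodes an H1 subtype found in most somatic cells, resting ones included, was not called. It had 44.0, 43.2, 10.7 and 17.7 FPKM in hypoxia libraries 1 to 4, against 6.58, 15.3, 23.8 and 12.3 FPKM in normoxia libraries 5 to 8. Hypoxia libraries 1 and 2 were above all others, and libraries 3 and 4 lay within the normoxia range. The log2 change was 0.88 ± 0.73 (SE) and missed the threshold (limma adjusted p = 0.881). Hist1h1e, another somatic H1 gene, overlapped in part, with 1.36 to 5.90 FPKM after hypoxia and 2.12 to 7.40 FPKM after normoxia. Hist1h1e and the H2B gene Hist1h2be overlap on the same strand, so fragments of the shared stretch cannot be assigned. Hist1h1d stayed at or below 1.45 FPKM in all libraries and was not tested. The testis-specific Hist1h1t was listed above 0 in 1 library only, at 0.04 FPKM (hypoxia library 2).

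The start regions of the H1 genes are shown because Hist1h1a and Hist1h1b fell while Hist1h1c did not, and all 3 hold a CCAAT box and an H1 box. Each line gives the 180 bases before the RefSeq start (GRCm38), 5′ to 3′ in the direction of the gene. Capitals mark TATAAA, the core of the TATA box, CCAAT, the core of the CCAAT box, and AAACAC, the core of the H1 box, each on either strand (CCAAT reads ATTGG on the other). Hist1h3c follows for comparison.
Hist1h1a (chr13:23763488-23763667, plus strand): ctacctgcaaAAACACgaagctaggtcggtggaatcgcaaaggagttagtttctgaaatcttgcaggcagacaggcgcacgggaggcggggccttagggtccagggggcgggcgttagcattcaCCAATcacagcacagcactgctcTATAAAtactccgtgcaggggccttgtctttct
Hist1h1b (chr13:21780626-21780805, minus strand): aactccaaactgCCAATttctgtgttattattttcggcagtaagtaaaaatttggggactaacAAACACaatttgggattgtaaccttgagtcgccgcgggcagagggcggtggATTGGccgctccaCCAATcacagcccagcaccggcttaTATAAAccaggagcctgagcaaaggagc
Hist1h1c (chr13:23738627-23738806, plus strand): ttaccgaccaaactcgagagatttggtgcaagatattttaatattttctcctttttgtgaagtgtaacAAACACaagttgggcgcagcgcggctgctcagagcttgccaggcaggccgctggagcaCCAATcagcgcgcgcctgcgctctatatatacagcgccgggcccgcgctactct
Hist1h3c (chr13:23745522-23745701, minus strand): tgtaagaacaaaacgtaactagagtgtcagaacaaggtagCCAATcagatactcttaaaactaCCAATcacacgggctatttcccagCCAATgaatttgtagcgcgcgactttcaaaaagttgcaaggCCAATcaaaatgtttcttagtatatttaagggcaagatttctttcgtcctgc
Of the 66 genes, 60 matched a RefSeq start region. In the 250 bases before the start, CCAAT stood in 49 of the 60 (81.7%), against 34.5% of 27025 start regions of all genes, including all 16 matched H2A and all 16 matched H2B genes but 3 of 12 H4 genes. TATAAA stood in 28 of the 60 (46.7%), against 13.0%. It stood in 4 of the 9 genes called lower and in 24 of the other 51 matched. AAACAC stood in all 6 H1 genes and in 14 of the 60 (23.3%), against 14.5%. A match is a description of the letters and shows no binding.

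Of the 17 H2A genes, 10 were tested and 2 fell. Hist1h2ak had 0.39, 0, 0 and 0.23 FPKM after hypoxia, against 1.29, 2.91, 2.02 and 3.95 FPKM after normoxia, a log2 change of -2.18 ± 0.42 (SE, limma adjusted p = 0.0144). Hist1h2ao, whose stem-loop is printed above, had 0.47, 0.69, 0.91 and 0.11 FPKM after hypoxia, against 4.17, 3.85, 2.76 and 6.69 FPKM after normoxia, a log2 change of -2.23 ± 0.46 (SE, limma adjusted p = 0.0198). In deposited FPKM, every hypoxia library of both genes lay below every normoxia library. The coding sequence of Hist1h2ao is identical to that of Hist1h2ap, so fragments may have been divided between them. Their sum was 0.64, 0.76, 1.03 and 0.17 FPKM after hypoxia, against 4.21, 4.64, 3.30 and 6.98 FPKM after normoxia. This sum did not overlap in deposited FPKM either, and it was not compared as a share of protein-coding FPKM. All 17 H2A genes had a lower mean after hypoxia, and 9 of the 17 lay lower without overlap in deposited FPKM. Among the 10 tested, 7 did, against 3.06% of all tested genes. The H2A count was not made as a share of protein-coding FPKM, where 10 of all 66 histone genes lay lower without overlap.

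The H2A genes of the Hist2 and Hist3 clusters overlapped between the groups. Hist2h2aa1 had 0, 13.46, 0 and 0 FPKM after hypoxia, against 69.84, 0, 7.67 and 8.21 FPKM after normoxia. It was thus listed at 0 in libraries of both groups and highest of all in normoxia library 5 (limma adjusted p = 0.331). Its identical copy Hist2h2aa2 was listed at 0 in all libraries but normoxia library 5, and noncoding genes overlap both. Hist2h2ac had 0.46 to 1.70 FPKM after hypoxia and 1.18 to 5.78 FPKM after normoxia (limma adjusted p = 0.509). Hist3h2a had 6.82, 5.79, 1.90 and 2.65 FPKM after hypoxia, against 3.11, 3.19, 8.41 and 3.05 FPKM after normoxia, with a log2 change of -0.07 ± 0.56 (SE, limma adjusted p = 0.999). Its annotated transcript overlaps Trim17 on the same strand, and the sign of its change turned under scaling by TMM.

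Of the 18 H2B genes, 12 were tested and 2 fell. Hist1h2bj had 1.07, 0.75, 0.77 and 0.52 FPKM after hypoxia, against 4.82, 5.38, 3.03 and 4.03 FPKM after normoxia, a log2 change of -1.91 ± 0.45 (SE, limma adjusted p = 0.0385). Hist1h2bm had 0.32, 0.40, 0.21 and 0 FPKM after hypoxia, against 1.39, 2.94, 1.41 and 5.88 FPKM after normoxia, a log2 change of -2.06 ± 0.45 (SE, limma adjusted p = 0.0266). Both genes separated the groups in deposited FPKM. Hist1h2bb missed the threshold (log2 change -2.05 ± 0.52 SE, limma adjusted p = 0.0552), with 0.18 to 1.41 FPKM after hypoxia and 1.68 to 8.80 FPKM after normoxia. Hist1h2bg had 0.45 to 6.58 FPKM after hypoxia and 2.45 to 5.79 FPKM after normoxia. The testis gene Hist1h2ba stayed at or below 0.24 FPKM.

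Hist1h2bc was the most abundant histone gene per length. It had 73.1, 61.8, 24.8 and 23.7 FPKM in hypoxia libraries 1 to 4, against 15.4, 23.8, 39.9 and 12.9 FPKM in normoxia libraries 5 to 8. As for Hist1h1c, hypoxia libraries 1 and 2 stood highest and the other 2 lay within the normoxia range. The log2 change was 0.94 ± 0.75 (SE) and missed the threshold (limma adjusted p = 0.869). It was called higher in 1 of 22 alternatives, with TMM scaling and normoxia library 5 left out (log2 change 1.09, limma adjusted p = 0.0234), where 5.77% of all tested genes were called higher. Over all the alternatives its adjusted p was 0.0234 or more. Hist1h1c and Hist1h2bc together made up 65.1%, 68.5%, 46.5% and 50.3% of the summed histone FPKM in hypoxia libraries 1 to 4, against 10.9%, 21.8%, 35% and 10.6% in normoxia libraries 5 to 8. These shares did not overlap, and they rise both with the 2 genes and with a lower level of the others.

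H3 and H4 form the inner tetramer of the nucleosome. Of the 12 H3 genes, 10 were tested and 2 fell. Hist1h3c had 0.13, 0.23, 0 and 0.18 FPKM after hypoxia, against 2.22, 4.08, 2.41 and 3.26 FPKM after normoxia. Its log2 change of -2.44 ± 0.41 (SE) had the smallest p of all histone genes (limma adjusted p = 0.00324), and its call was lost in 1 of the 21 alternatives in which it was tested, the one with no filter on low values. Hist1h3h had 0.07, 0, 0 and 0.06 FPKM after hypoxia, against 1.67, 1.94, 0.36 and 2.39 FPKM after normoxia, a log2 change of -1.84 ± 0.42 (SE, limma adjusted p = 0.0320). In the hypoxia libraries, 47 of the 48 values of H3 genes were at most 1 FPKM. The exception was Hist2h3c1 at 2.60 FPKM in hypoxia library 1, which shares its coding sequence with Hist2h3c2. The sum of these identical copies overlapped, at 3.01, 0.32, 1.45 and 1.2 FPKM after hypoxia against 1.5, 2.63, 1.73 and 2.47 FPKM after normoxia. Hist1h3b had 0.17 to 0.88 FPKM after hypoxia and 0.69 to 4.83 FPKM after normoxia, and Hist1h3i 0 to 0.86 FPKM after hypoxia and 0.28 to 3.10 FPKM after normoxia.

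Of the 13 H4 genes, 12 were tested and 1 fell, and all 13 had a lower mean after hypoxia. Hist1h4m had 1.41, 0.85, 0.57 and 0.54 FPKM after hypoxia, against 2.83, 7.85, 6.59 and 8.83 FPKM after normoxia, a log2 change of -2.33 ± 0.50 (SE, limma adjusted p = 0.0226). Summed with its identical copy Hist1h4n, it was 2.44, 1.0, 1.05 and 1.29 FPKM after hypoxia, against 3.34, 10.48, 7.39 and 11.01 FPKM after normoxia. The copies together did not overlap in deposited FPKM, and their sum was not compared as a share of protein-coding FPKM. Hist1h4h, the H4 gene with the highest mean, carries the same 16 bases in its stem-loop as Hist1h4m. It had 5.80, 4.69, 5.60 and 4.39 FPKM after hypoxia, against 24.83, 10.02, 3.70 and 8.83 FPKM after normoxia, where library 7 lay below all hypoxia libraries (limma adjusted p = 0.833). Hist1h4f did not overlap in deposited FPKM but missed the threshold, with 0.31 to 1.0 FPKM after hypoxia and 1.93 to 7.02 FPKM after normoxia (limma adjusted p = 0.0851). Hist1h4d had 0.37 to 2.59 FPKM after hypoxia and 2.42 to 7.56 FPKM after normoxia, and Hist1h4c 1.60 to 3.98 FPKM after hypoxia and 2.55 to 4.76 FPKM after normoxia.

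**Figure D2:**
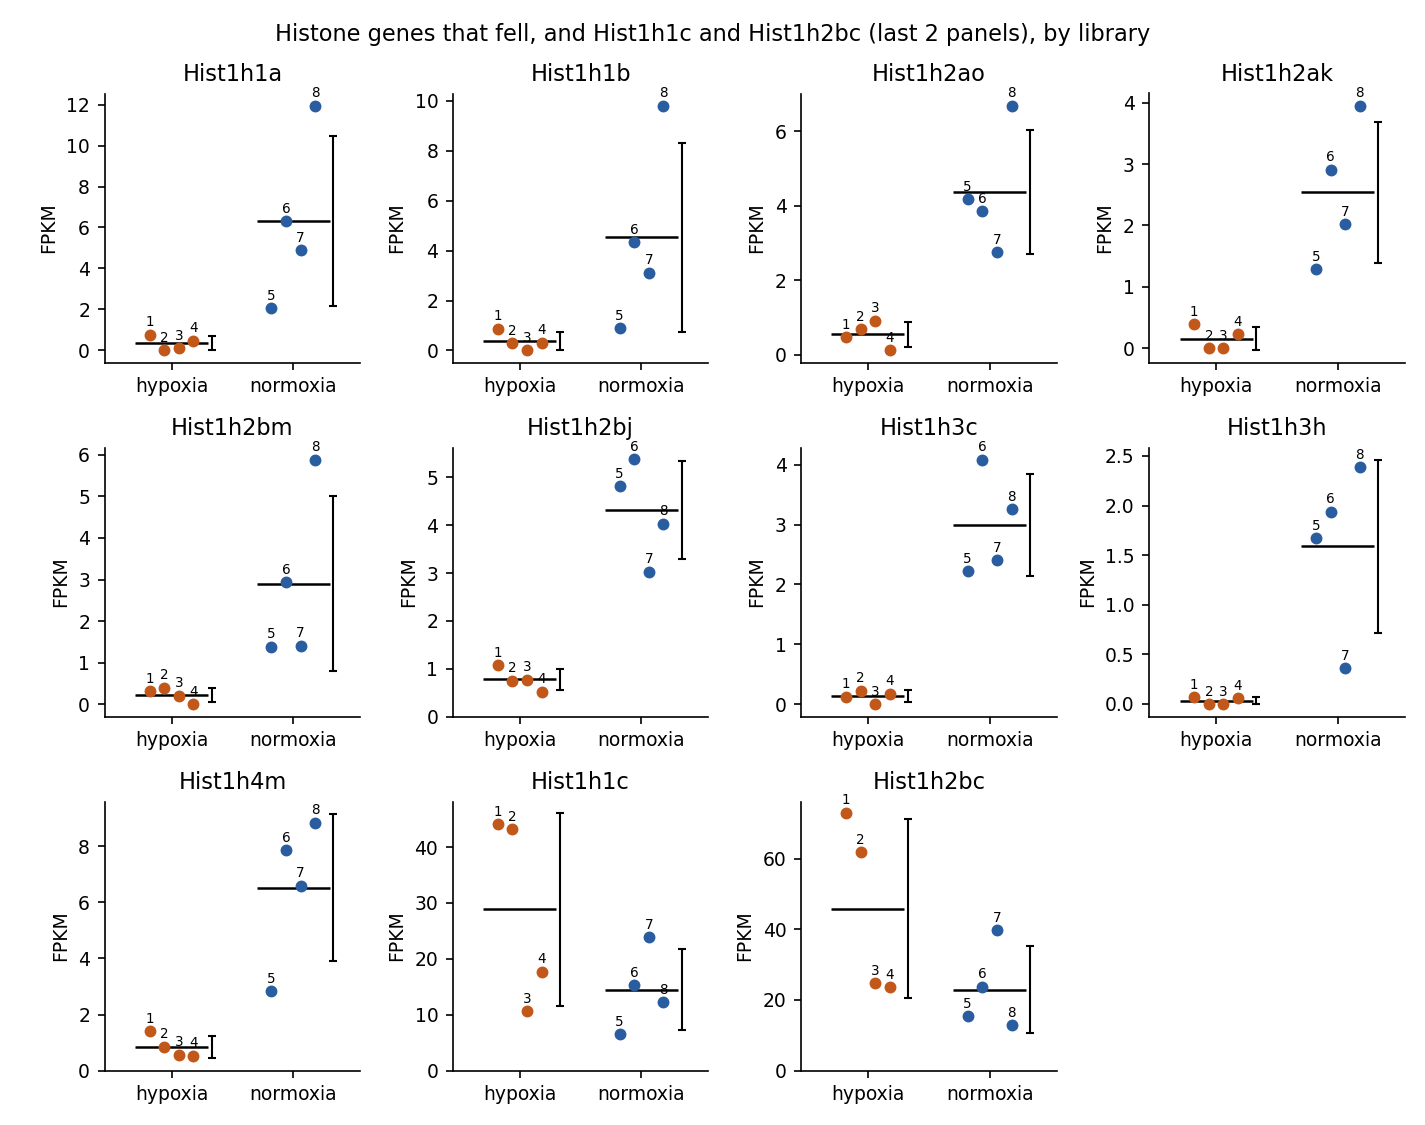
FPKM by library (vertical axis, each panel its own scale) of the 9 histone genes that fell and of Hist1h1c and Hist1h2bc, with hypoxia libraries 1 to 4 left of normoxia libraries 5 to 8; the line is the group mean and the bar is 1 SD. In deposited FPKM, every hypoxia library lies below every normoxia library in the first 9 panels, whereas in the last 2 hypoxia libraries 1 and 2 are highest. As a share of protein-coding FPKM, 10 of all 66 histone genes lay lower without overlap.

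The genes also differed in how far their annotated transcript runs past the stop codon, a property the choice of genes did not use. By the GENCODE M21 transcript that runs furthest, 12 of the 66 end at the stop codon, 29 run on for fewer than 200 bases and 25 for 200 or more. The limit of 200 bases was chosen after the values were seen, so no test is given; Hist1h2ae, with 199 bases, is just inside the short group and Hist1h2bg, with 200, just outside it. All 9 genes that fell are among those with none or fewer than 200. In that group 31 of the 41 genes were tested, all 31 had a negative log2 change, and the changes ran from -2.91 to -0.79 with a median of -1.46. Some of the 31, Hist1h3h among them, passed the filter only through their normoxia libraries. Of the 25 with longer ends, 17 were tested, 0 were called in limma, 14 had a negative change and the median was -0.74, within a range of -1.56 to 0.94. Both medians lay below the -0.14 of all tested genes. A short end mostly goes with a short annotated transcript, so the 2 properties cannot be told apart here. With the trend on gene length removed from each library, the median of the tested histone genes was -0.82, against 0.01 over all tested genes. In that fit 2 histone genes were called lower, and 251 of all 14444 tested genes.

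Without the uneven pair Hist2h2aa1 and Hist2h2aa2, the 39 other genes with none or fewer than 200 bases summed to 28.2, 16.7, 23.7 and 18.4 FPKM in hypoxia libraries 1 to 4, against 78.9, 101.5, 66.1 and 156.8 FPKM in normoxia libraries 5 to 8. The 25 with longer ends summed to 151.6, 123.1, 52.5 and 63.9 FPKM after hypoxia, against 50.5, 77.5, 108.2 and 73.4 FPKM after normoxia. In deposited FPKM the first sum did not overlap and the second did. As a percent of protein-coding FPKM the first overlapped as well, at 0.0217, 0.00973, 0.0473 and 0.0341 after hypoxia, against 0.0393, 0.14, 0.0397 and 0.313 after normoxia. Without Hist1h1c and Hist1h2bc, the other 23 long-ended genes summed to 17.1 to 34.5 FPKM after hypoxia and 28.6 to 48.2 FPKM after normoxia. Annotated length is not evidence that a longer, polyadenylated form was present in these kidneys: the table gives 1 value per gene. Of the 43 genes with a stem-loop in the annotated transcript, 22 had a short end and 21 a long one.

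**Figure D3:**
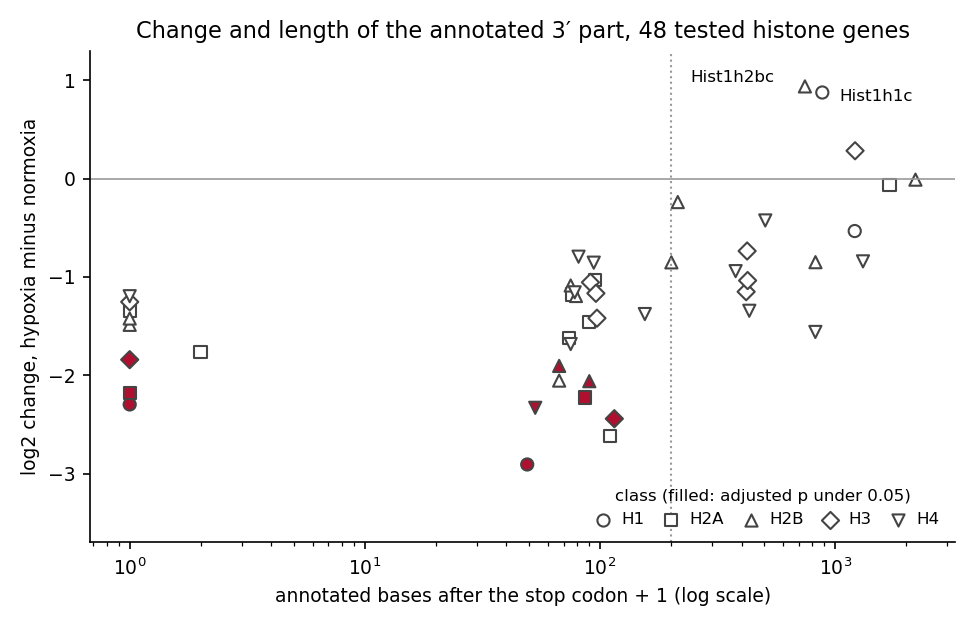
Log2 change, hypoxia minus normoxia (vertical axis), of the 48 tested histone genes against the annotated bases after the stop codon plus 1 (log scale); the symbol gives the class, filled symbols have an adjusted p under 0.05 and the dotted line is the limit of 200 bases. All 9 filled symbols lie left of the line, and Hist1h2bc and Hist1h1c, at 0.94 and 0.88, lie highest on the right.

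Copies limit the reading of single genes. Of the 66 coding sequences, 49 have another of the same length that is at least 95% identical, and 5 pairs are identical. Fragments from such copies can be divided between them by the counting step. Among the 49 genes with a close copy, 46 had a lower mean after hypoxia, and among the other 17, 13 did. Sequences of unlike length were not compared, so the 17 include genes with no comparison made, among them Hist1h1a, Hist1h1b and Hist1h2ah. The calls other than those for Hist1h1a and Hist1h1b, 7 in all, rest on genes with a close copy.

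Other genes of DNA replication were lower in the same libraries. Of 35 genes of S phase, 34 were tested, 7 fell (Uhrf1, Mcm5, Ccna2, Rrm2, Mcm3, Pole and Lig1) and 0 rose. Over all tested genes, 0.602% were called lower and 0.305% higher. The median log2 change of the S-phase genes was -1.45, against -1.195 for the histone genes and -0.14 for all tested genes. Mcm5, a subunit of the replicative helicase, had 1.92, 0.98, 0.23 and 0.39 FPKM after hypoxia, against 4.10, 4.77, 17.63 and 6.07 FPKM after normoxia (log2 change -2.57 ± 0.54 SE, limma adjusted p = 0.0226). Rrm2, a subunit of the enzyme that makes deoxynucleotides, had 3.53, 2.82, 0.37 and 0.39 FPKM after hypoxia, against 6.98, 9.89, 33.58 and 11.29 FPKM after normoxia (log2 change -2.89 ± 0.64 SE, limma adjusted p = 0.0278). Pcna, the sliding clamp of the polymerases, overlapped and missed the threshold (log2 change -1.24 ± 0.74 SE, limma adjusted p = 0.707).
The proliferation marker Mki67 had 2.72, 1.07, 0.64 and 0.61 FPKM after hypoxia, against 4.93, 10.1, 18.27 and 20.02 FPKM after normoxia (log2 change -2.94 ± 0.58 SE, limma adjusted p = 0.0148). Top2a, which untangles DNA in dividing cells, had 1.87, 0.85, 0.08 and 0.29 FPKM after hypoxia, against 2.04, 4.58, 14.1 and 7.05 FPKM after normoxia (log2 change -2.48 ± 0.56 SE, limma adjusted p = 0.0316).
The order of the normoxia libraries differed: the S-phase genes were highest in library 7, at a sum of 357.2 FPKM, and the short-ended histone genes in library 8.

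Of the histone chaperones, which carry histones to DNA, 1 of 17 tested genes fell and 0 rose, against 0.602% and 0.305% of all tested genes. Chaf1b, a subunit of the CAF-1 complex that deposits H3 and H4 behind the replication fork, had 0.67, 0.45, 0.05 and 0.10 FPKM after hypoxia, against 5.69, 1.23, 5.30 and 1.83 FPKM after normoxia (log2 change -2.16 ± 0.48 SE, limma adjusted p = 0.0278). Asf1b, which hands H3 and H4 to CAF-1, missed the threshold (log2 change -1.85 ± 0.46 SE, limma adjusted p = 0.0512).
The genes for making and ending histone messages did not pass. In limma, 0 of 13 tested genes of histone mRNA processing were called, 1 of them (Lsm10) was lower at an unadjusted p under 0.05, and the median log2 change was -0.46. Slbp, which encodes the stem-loop binding protein, had 1.81, 1.74, 0.97 and 0.72 FPKM after hypoxia, against 0.71, 1.29, 5.80 and 2.13 FPKM after normoxia (log2 change -0.49 ± 0.50 SE, limma adjusted p = 0.931). The groups overlapped, with normoxia library 7 the highest.
Of 7 tested genes of histone transcription, 0 were called in limma and 0 passed at an unadjusted p under 0.05. Npat, the coactivator of histone gene transcription, had 0.85 to 1.57 FPKM after hypoxia and 0.30 to 2.10 FPKM after normoxia, with a log2 change of -0.08 ± 0.45 (SE, limma adjusted p = 0.999).

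Replacement histones can be made outside S phase, for the most part from polyadenylated messages. They gave 0 calls in 11 tested genes in limma, with 2 lower at an unadjusted p under 0.05 (Cenpa and H2afx). The median log2 change of the 11 was -0.69. With TMM scaling without normoxia library 5, Cenpa and H2afx were both called lower (limma adjusted p = 0.0177 for Cenpa and 0.0320 for H2afx). In that fit 767 of all 14414 tested genes were called lower. H2afx was also called lower with the common protein-coding sum (limma adjusted p = 0.0448) and with the ribosomal share as a covariate (limma adjusted p = 0.0465). In those fits 0.976% and 1.32% of all tested genes were called lower. H3f3b, which encodes H3.3, had 36.6, 37.6, 13.5 and 16.8 FPKM after hypoxia, against 26.3, 34.9, 77.9 and 20.8 FPKM after normoxia (log2 change -0.55 ± 0.75 SE, limma adjusted p = 0.982). H1f0, the linker histone of resting cells, had 22.08 to 70.85 FPKM after hypoxia and 19.97 to 76.65 FPKM after normoxia (log2 change 0.01 ± 0.77 SE, limma adjusted p = 0.999). Both overlapped. H2afz, which encodes H2A.Z, had a log2 change of -1.36 ± 0.77 (SE, limma adjusted p = 0.676), with 5.33 to 31.2 FPKM after hypoxia and 22.1 to 78.9 FPKM after normoxia. Whether the replacement histones changed less than the replication-dependent ones was not tested.

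Of the markers of kidney and of other cells, only the macrophage markers had sums that did not overlap between the groups in deposited FPKM. The sums were not compared as a share of protein-coding FPKM. Gene by gene, 4 of the 8 tubule and 3 of the 5 red cell markers lay higher without overlap, and 4 of the 7 macrophage markers lower. Over all tested genes, 1.86% lay higher and 3.06% lower without overlap. In deposited FPKM, the unadjusted limma p was below 0.05 for 2.52% of them with a rise and 6.84% with a fall. TMM scaling called 175 of all 14444 tested genes higher and 191 lower. With normoxia library 5 also left out, 831 of all 14414 were called higher and 767 lower. Markers of the renal tubule, the labelled tissue, were present in every library and summed to 760 to 2465 FPKM after hypoxia and 228 to 865 FPKM after normoxia, with none of the 8 tested called in limma and 3 higher at an unadjusted p under 0.05; with TMM scaling 2 were called higher, and 5 with TMM scaling without normoxia library 5. Macrophage markers summed to 99.1, 96.1, 19.6 and 23.4 FPKM after hypoxia, against 785.9, 182.6, 573.3 and 123.3 FPKM after normoxia. All 7 macrophage markers had a negative log2 change (median -2.48), 0 were called in limma, and 6 were lower at an unadjusted p under 0.05. With TMM scaling 3 of the 7 were called lower, and 6 with TMM scaling without normoxia library 5. Red cell markers summed to 199 to 534 FPKM after hypoxia and 10.3 to 549 FPKM after normoxia, with 0 of 5 called in limma and 5 higher at an unadjusted p under 0.05; under the same 2 scalings 2 and 4 were called higher. Neutrophil markers summed to 0 to 3.62 FPKM after hypoxia and 1.86 to 59.4 FPKM after normoxia, and lymphocyte markers to 0.06 to 0.51 FPKM after hypoxia and 0.03 to 6.66 FPKM after normoxia. The part of these cells in the histone levels was not tested.

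The ribosomal share is set here beside the level of the short-ended histone genes relative to the S-phase genes. The sum of the 39 short-ended histone genes divided by the sum of the S-phase genes was 0.391, 0.277, 1.24 and 1.02 in hypoxia libraries 1 to 4, against 0.797, 0.946, 0.185 and 1.297 in normoxia libraries 5 to 8. It was highest in the 4 libraries with a ribosomal share over 60% (hypoxia 3 and 4, normoxia 6 and 8), a limit placed after the values were seen. Below it there was no such order: normoxia library 5 had the lowest share, 13.5%, and a ratio of 0.797. With shares over 60%, the histone sum was 23.7 and 18.4 FPKM in hypoxia libraries 3 and 4, against 101.5 and 156.8 FPKM in normoxia libraries 6 and 8. With lower shares, it was 28.2 and 16.7 FPKM in hypoxia libraries 1 and 2, against 78.9 and 66.1 FPKM in normoxia libraries 5 and 7. With the ribosomal share as a covariate, 14 histone genes were called lower in limma, all 9 named above among them, and 0 higher; over all tested genes, 1.32% were called lower and 0.623% higher in that fit. The part of the ribosomal share in the histone levels was not tested.

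**Figure D4:**
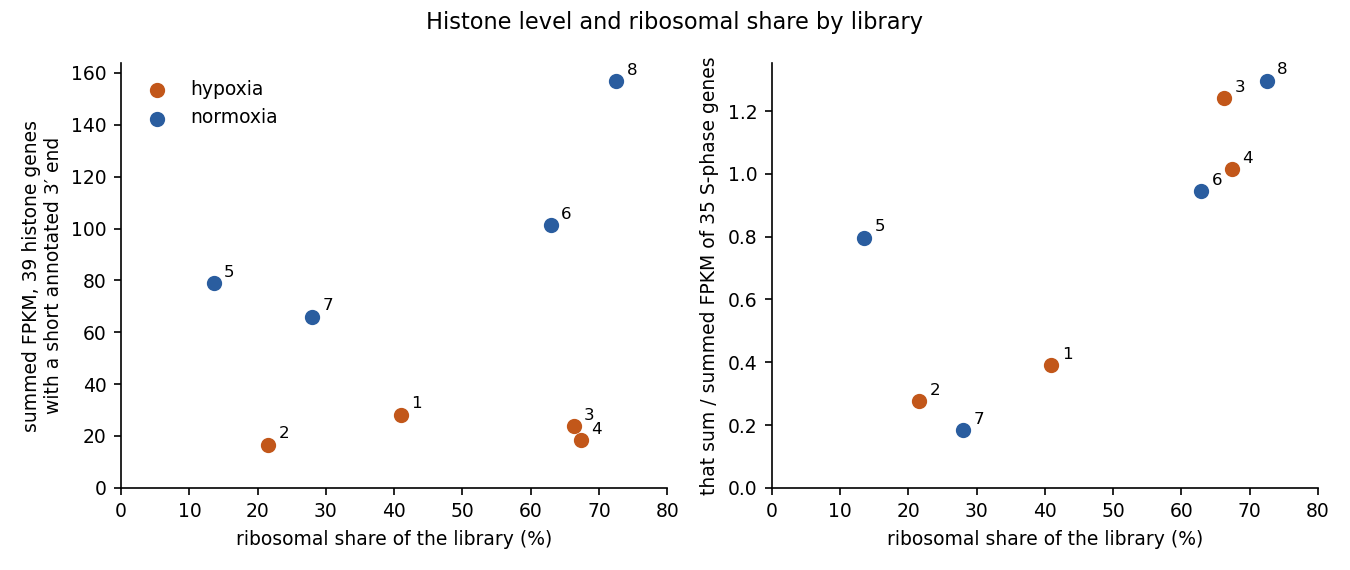
Left, summed FPKM of the 39 short-ended histone genes against the ribosomal share of each library in percent; right, that sum divided by the summed FPKM of the 35 S-phase genes. Points are libraries with their numbers, hypoxia in orange and normoxia in blue. In deposited FPKM the hypoxia libraries lie lower on the left (16.7 to 28.2 FPKM, against 66.1 to 156.8 FPKM after normoxia), whereas on the right both groups reach their highest ratios, 1.24 and 1.297, in libraries with shares over 60%.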

How the data were processed

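Kidney poly(A) RNA was sequenced from TruSeq stranded libraries, per the labels' protocols; the submitters' processing notes name HISAT2, StringTie and edgeR without versions or roles, and the authors' build and annotation are not given in sources used here. The authors deposited FPKM per gene and library, in 2 decimals. All 34450 identifiers matched GENCODE M21 (GRCm38), which gave symbols, lengths and transcripts; start regions came from RefSeq (GRCm38.p6).

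FPKM was tested as log2(FPKM + 0.5), a scale that understates the changes of low genes, with limma 3.58.1 in R 4.3.3 (trended variance, two-sided, mean of at least 0.5 FPKM, Benjamini-Hochberg over 14444 genes). On simulated data for this comparison 28 of 100 genes set to a log2 change of 2 and 76 of 100 set to 3 were called, with 5 false among 109 calls. Those changes were set only in genes with a mean log2(FPKM + 0.5) above 2, with independent noise in each library. The histone genes called lie below that level, so these rates do not describe them. The genes and lists were chosen with earlier results of these data known. Named are all genes called, the 4 most abundant and the 2 with the smallest p in each class, and, per list, those called or else the 2 with the smallest p, though not all of these are printed. Alternatives were other pseudocounts, filters, scalings and variance models, a ribosomal covariate, removal of a length trend and libraries left out. The length of the 3′ end was read from the annotated coding transcript that runs furthest past the stop codon. Depth was estimated from the spacing of low FPKM values.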

Additional observations from a re-analysis of the deposited data

Results flagged for a closer look

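Values that lay far from the other 3 libraries of their group, by a gap test that chance passes in about 1 in 20 groups, came up in 5 of 60 groups tested. The summed H3 genes were low in hypoxia library 2, at 1.58 FPKM, against 4.67 to 4.94 FPKM in the other hypoxia libraries. Hist1h4f was high in normoxia library 8, at 7.02 FPKM. Hist2h2aa1 was high in hypoxia library 2, at 13.46 FPKM, where the other hypoxia libraries were listed at 0, and in normoxia library 5, at 69.84 FPKM. Hist3h2a was high in normoxia library 7, at 8.41 FPKM.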

How the results depend on the processing

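No paired analysis was possible because the groups share no replicate numbers. The count of histone genes called lower, 9 as reported, was 0 with no filter, 3 with a filter of 2 FPKM, 5 with TMM scaling, 1 with a common protein-coding sum, 2 with untrended variance, 36 with library weights, 14 with the ribosomal covariate and 2 with the length trend removed; leaving out each library in turn gave 2 to 11. Calls over all genes moved too: lower were 87 as reported, and in the same order 0, 79, 191, 141, 8, 1297, 191 and 251, with 4 to 237 as each library was left out. TMM scaling moved the median of all tested genes to 0.0157, against -0.14 as reported, and that of the histone genes to -1.10. The histone median was -1.87 with a pseudocount of 0.1 and -0.82 with the length trend removed. TMM scaling without normoxia library 5 gave 1 histone gene called higher. Of the S-phase genes (7 lower as reported), 15 were lower with TMM scaling and 27 with TMM scaling without normoxia library 5. Of the chaperones (1 as reported), 2 and 4 were. Under these scalings 191 of all 14444 and 767 of all 14414 tested genes were called lower. With the common protein-coding sum, Uhrf1, Ccna2 and Mcm3 lost their call (limma adjusted p = 0.0603, 0.0569 and 0.108), as did Mki67 (0.0732) and Top2a (0.0929). Mcm5, Rrm2, Pole, Lig1 and Chaf1b kept theirs, and Tk1 and H2afx were called lower (limma adjusted p = 0.0448 for both). The cause was not tested. None of the 9 genes that fell changed direction in any of the 21 or 22 alternatives that gave it a value. Among the named histone genes that were not called, the log2 change turned to 0.0157 for Hist1h1e and 0.0275 for Hist1h4c without hypoxia libraries 1 and 2, and to 0.40 for Hist2h2aa1 with library weights. That of Hist3h2a turned to 0.10 with TMM, 0.0949 with quantile normalization, 0.12 with the common sum, 0.0861 with TMM without normoxia library 5, 0.0134 with the covariate and 0.17 with the length trend removed, and it ran from -0.32 to 0.26 as each library was left out. All 9 calls rest on fewer than 10 estimated fragments per hypoxia library.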
